A study of Mus musculus with 4 samples.

Results

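Lif, the gene for leukemia inhibitory factor, and 9 further genes for secreted cytokines and chemokines (Il6, Ccl2, Ccl7, Cxcl1, Cxcl2, Cxcl10, Cxcl12, Csf1 and Tnf) were followed in hair cells and non-hair cells of the newborn mouse cochlea during early exposure to gentamicin. The 10 genes were picked by symbol from the 23420 genes listed for each replicate. Lif heads the group because it was chosen by its measured scores in this same series, where it was lower in gentamicin-treated non-hair cells than in their controls. Its values in non-hair cells are therefore a description, as are those of the other 9 genes in that comparison, and no p-value is given for them there.

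Cochleae came from CD1 mice at postnatal day 1 that carried the Atoh1-GFP transgene, in which GFP marks hair cells. They were kept overnight as organ cultures with 100 U/ml penicillin at 5% CO2 and 5% O2, and then held for 3 h with or without 0.5 mM gentamicin, an aminoglycoside antibiotic that damages hair cells. Dissociated cells were sorted by GFP into hair cells (HC, GFP positive) and non-hair cells (NHC, GFP negative), and polyadenylated RNA was sequenced in 3 replicates of each of 4 groups: HC control, HC gentamicin, NHC control and NHC gentamicin. Every group shares the transgene, the culture, the penicillin and the sort, and the study calls the replicates biological without saying whether they came from separate litters or days, so p-values measure only the spread between these replicates. The reporter is weakly active in inner phalangeal cells, a supporting cell type, and the sort left out cells with low GFP. The NHC fraction is a mixture of supporting cells, the greater and lesser epithelial ridges and surrounding tissue with fibroblasts, vessels, glia and immune cells. In such bulk samples fewer cells of a type and less RNA per cell cannot be told apart.

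LIF and IL-6 are cytokines of the IL-6 family, which signal through receptors that share the gp130 chain (Il6st) to the JAK kinases and the transcription factor STAT3. Chemokines draw leukocytes along a gradient, CC chemokines such as CCL2 and CCL7 acting mainly on monocytes, CXCL1 and CXCL2 on neutrophils and CXCL10 on activated T cells, whereas CXCL12 guides and retains many cell types through CXCR4. CSF1 maintains macrophages and TNF is a central inflammatory signal, and many of these genes are induced through NF-kB, AP-1 or interferon-activated factors and have short-lived mRNAs.

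The 250 bases before the RefSeq transcription start (build GRCm38.p6) are shown for 4 of the genes, to set the letters of known inducible motifs beside the values of Lif, of Cxcl10 and of the neighbours Cxcl1 and Cxcl2. Lif stands at chr11:4257318-4257567 on the plus strand, Cxcl1 at chr5:90890995-90891244 and Cxcl2 at chr5:90903649-90903898 on the plus strand, and Cxcl10 at chr5:92348890-92349139 on the minus strand. Capitals mark matches to 4 motifs searched on both strands, kappaB (GGNNNTTCC), AP-1 (TGANTCA), the paired form of the interferon-stimulated response element (GAAANNGAA) and STAT (TTCNNNGAA).
Lif: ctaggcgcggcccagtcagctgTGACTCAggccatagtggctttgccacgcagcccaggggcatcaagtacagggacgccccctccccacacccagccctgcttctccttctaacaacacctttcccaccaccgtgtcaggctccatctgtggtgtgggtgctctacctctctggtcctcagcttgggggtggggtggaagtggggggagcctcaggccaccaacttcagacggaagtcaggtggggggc
Cxcl1: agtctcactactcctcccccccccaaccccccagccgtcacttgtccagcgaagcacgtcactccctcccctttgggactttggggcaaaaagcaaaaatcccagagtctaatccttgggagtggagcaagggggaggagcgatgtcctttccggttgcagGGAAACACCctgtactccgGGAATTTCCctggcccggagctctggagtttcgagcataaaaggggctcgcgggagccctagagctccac
Cxcl2: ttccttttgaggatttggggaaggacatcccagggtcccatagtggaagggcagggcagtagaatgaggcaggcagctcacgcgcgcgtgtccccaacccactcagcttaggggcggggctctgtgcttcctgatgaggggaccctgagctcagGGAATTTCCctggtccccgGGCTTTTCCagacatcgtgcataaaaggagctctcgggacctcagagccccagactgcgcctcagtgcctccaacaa
Cxcl10: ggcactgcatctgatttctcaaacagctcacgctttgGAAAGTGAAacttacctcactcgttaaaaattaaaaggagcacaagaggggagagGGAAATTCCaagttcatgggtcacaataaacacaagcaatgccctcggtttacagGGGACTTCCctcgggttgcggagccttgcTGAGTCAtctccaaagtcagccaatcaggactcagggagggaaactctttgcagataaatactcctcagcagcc

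Lif held 1 AP-1 match, 228 to 222 bases before the start, and none to the kappaB letters. Cxcl1 and Cxcl2, which are neighbours on chromosome 5, each held 2 kappaB matches and shared the match GGAATTTCC. Cxcl10 held 2 kappaB matches, 1 AP-1 match and 1 interferon element match. RefSeq promoter entries were matched for 8 of the 10 genes (not for Ccl2 and Ccl7), and among the others Il6, Csf1 and Tnf had 1 kappaB match each, Il6 also had 1 AP-1 match, and Cxcl12 had none. Over the 32851 promoter windows of this table, 15.7% held the kappaB letters, 6.75% the AP-1 letters, 7.13% the interferon element letters and 7.02% the STAT letters, which occurred in none of the 8 windows. A match is a description of these letters and not a site, and the lack of one says only that the letters are not in this window.

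Recovered reads on genes numbered 22400122–28151663 per replicate, and 16088 genes with at least 100 of them over the 12 replicates were tested. Values below are normalized read scores, to each of which the authors had added 1, so that a score of 1 stands for no reads, and 1 read was worth 0.0351–0.0461 on this scale. All 10 genes passed the minimum, but 7 of them had fewer than 100 reads over the 6 HC replicates together and passed through NHC. Markers of hair cells, 10 in all, summed to 11940–12476 above 1 in HC control and to 257–281 in NHC control. After gentamicin they summed to 10340–11430 in HC and to 258–320 in NHC. Each replicate differed from the mean of the other pair of its group by a median of 0.0897–0.187 on the log2 scale over genes. In NHC, the replicates with the largest such distance were NHC gentamicin 2 (0.187) and 3 (0.186) and NHC control 1 (0.176).

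Among the IL-6 family ligands, Lif (chromosome 11, 4257557–4272514, mm10, plus strand), which supports neural and glial survival and acts on the LIF receptor, had scores of 21.9, 27.9 and 24.8 in NHC control and 8.80, 4.65 and 11.6 in NHC gentamicin. Every treated replicate was below every control, and NHC gentamicin 2 was the lowest. The score above 1 was 30.8% of the control mean, and the log2 difference was -1.67 on the score scale. In HC, Lif scored 1.61, 2.28 and 2.01 in controls and 1.21, 1.54 and 1.21 after gentamicin, which rests on 66 and 24 reads. The HC groups did not overlap, and the log2 difference of -0.57 (95% interval -1.19 to 0.05) did not pass the test (limma, adjusted p = 0.141). The score above 1 in HC was 33.2% of its control mean, beside 30.8% in NHC. The added 1 shrinks the log2 difference of such low scores. Il6 (chromosome 5, 30013114–30019981), a cytokine of acute inflammation, was close to the lower end of the scale, at 1.74, 1.83 and 2.12 in NHC control and 1.58, 1.33 and 2.44 in NHC gentamicin. These NHC groups overlapped, with the treated replicates on both sides of the controls. HC held 3 Il6 reads over the controls and 7 over the treated replicates, so no fold is given there.

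The CC chemokine genes Ccl2 (chromosome 11, 82035571–82037453) and Ccl7 (82045712–82047525), which attract monocytes, lie 8259 bases apart on the same strand. Ccl2 scored 35.3, 21.1 and 51.0 in NHC control and 13.8, 14.5 and 22.8 in NHC gentamicin. The highest treated replicate was above the lowest control, and NHC control 2 was the lowest control for both genes. Ccl7 scored 23.6, 15.5 and 31.2 in NHC control and 8.496, 12.5 and 19.1 in NHC gentamicin, again with overlap. The log2 differences in NHC were -1.02 for Ccl2 and -0.83 for Ccl7. Of all tested genes, Ccl7 had the profile nearest to Ccl2 over the 12 replicates, with a root mean square log2 difference of 0.22 after each gene was centred, followed by Cxcl1 at 0.29 and Cebpd, a transcription factor of the acute phase, at 0.37. In HC, Ccl2 had scores of 1.65, 1.73 and 1.78 in controls and 1.21, 1.21 and 1.499 after gentamicin, from 49 and 24 reads, without overlap. The HC difference of -0.41 for Ccl2 (95% interval -1.03 to 0.22) did not pass the test (limma, adjusted p = 0.297). The score above 1 of Ccl2 was 42.3% of the control mean in HC and 46.0% in NHC. Ccl7 in HC had 13 reads in controls and 16 after gentamicin, with overlapping scores of 1.04–1.39 over the 6 replicates.

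Cxcl1 (chromosome 5, 90891241–90893115) and Cxcl2 (90903871–90905938) encode neutrophil chemokines that act on CXCR2, and Cxcl2 starts 10756 bases past the end of Cxcl1. Cxcl1 scored 36.9, 28.9 and 54.9 in NHC control and 19.1, 15.5 and 30.2 in NHC gentamicin. NHC gentamicin 3 lay above NHC control 2, so the groups overlapped, and the log2 difference was -0.90. Cxcl2 scored 3.79, 4.77 and 7.17 in NHC control and 4.26, 2.22 and 4.598 in NHC gentamicin, with overlap and a log2 difference of -0.53. In HC, Cxcl1 scored 1.48, 1.81 and 1.41 in controls and 1.37, 1.33 and 1.04 after gentamicin, from 39 and 18 reads. These HC groups did not overlap, but the difference of -0.33 (95% interval -0.93 to 0.26) did not pass the test (limma, adjusted p = 0.374). The score above 1 of Cxcl1 was 43.5% of the control mean in HC and 52.6% in NHC. Cxcl2 had 7 reads in HC control and 3 in HC gentamicin.

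Cxcl10 (chromosome 5, 92346638–92348889, minus strand), an interferon-induced chemokine read by CXCR3, had scores of 146, 50.1 and 81.3 in NHC control and 40.9, 28.0 and 45.3 in NHC gentamicin. The treated replicates all lay under the controls, NHC control 1 was far above the other controls, and the log2 difference was -1.17, or -0.77 without that replicate. Summed scores above 1 of 14 interferon responsive genes moved with this replicate, at 1576 in NHC control 1 against 682 and 691 in the other controls and 630–764 after gentamicin, and their part in the Cxcl10 difference was not tested. The genes nearest to Cxcl10 over the 12 replicates were Oas2, Gbp10 and Ifi44, all known as interferon-induced, with root mean square log2 differences of 0.36, 0.40 and 0.41, and reads of Gbp10 can be shared with near-identical Gbp genes. In HC, Cxcl10 scored 2.39, 3.69 and 1.88 in controls and 1.66, 1.92 and 1.68 after gentamicin. HC gentamicin 2 lay above HC control 3, and the difference of -0.54 (95% interval -1.32 to 0.23) did not pass the test (limma, adjusted p = 0.262). Exons of Cxcl10 overlap those of Art3, whether the counting used strand is not given in the sources used here, and Art3 itself had mean scores of 10.3 ± 2.01 in HC control and 16.4 ± 3.21 in NHC control (SD, n = 3).

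Cxcl12 (chromosome 6, 117168535–117181367), the ligand of CXCR4 and of the scavenging receptor encoded by Ackr3, scored 405, 278 and 243 in NHC control and 385, 294 and 224 in NHC gentamicin. These NHC values overlapped fully, with a log2 difference of -0.04. In HC the scores were 20.3, 31.5 and 21.3 in controls and 9.29, 7.86 and 12.3 after gentamicin. The highest treated replicate was below the lowest control, HC control 2 was the highest control, and Cxcl12 fell by 1.31 on the log2 scale (SE 0.25, 95% interval -1.86 to -0.75, limma, adjusted p = 0.0029). Leaving out each HC replicate in turn kept the call, with -1.11 without HC control 2. Csf1 (chromosome 3, 107741048–107760469, minus strand), the macrophage growth factor, scored 72.2, 61.2 and 60.5 in NHC control and 59.3, 71.6 and 58.7 in NHC gentamicin, with overlap and a log2 difference of -0.03. In HC, Csf1 scored 3.17, 3.52 and 3.17 in controls and 2.15, 2.34 and 2.50 after gentamicin, from 156 and 102 reads. The HC groups did not overlap, and Csf1 fell by 0.50 on the log2 scale (SE 0.12, 95% interval -0.76 to -0.23, limma, adjusted p = 0.00974), a call that voom weights on recovered reads did not give (-0.68, adjusted p = 0.134). Tnf (chromosome 17, 35199381–35202007, minus strand) was low, at 2.57, 3.34 and 3.43 in NHC control and 1.89, 1.88 and 2.69 in NHC gentamicin. NHC gentamicin 3 lay above NHC control 1, the log2 difference was -0.54, and HC held 7 Tnf reads in controls and 6 after gentamicin.

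**Figure D1:**
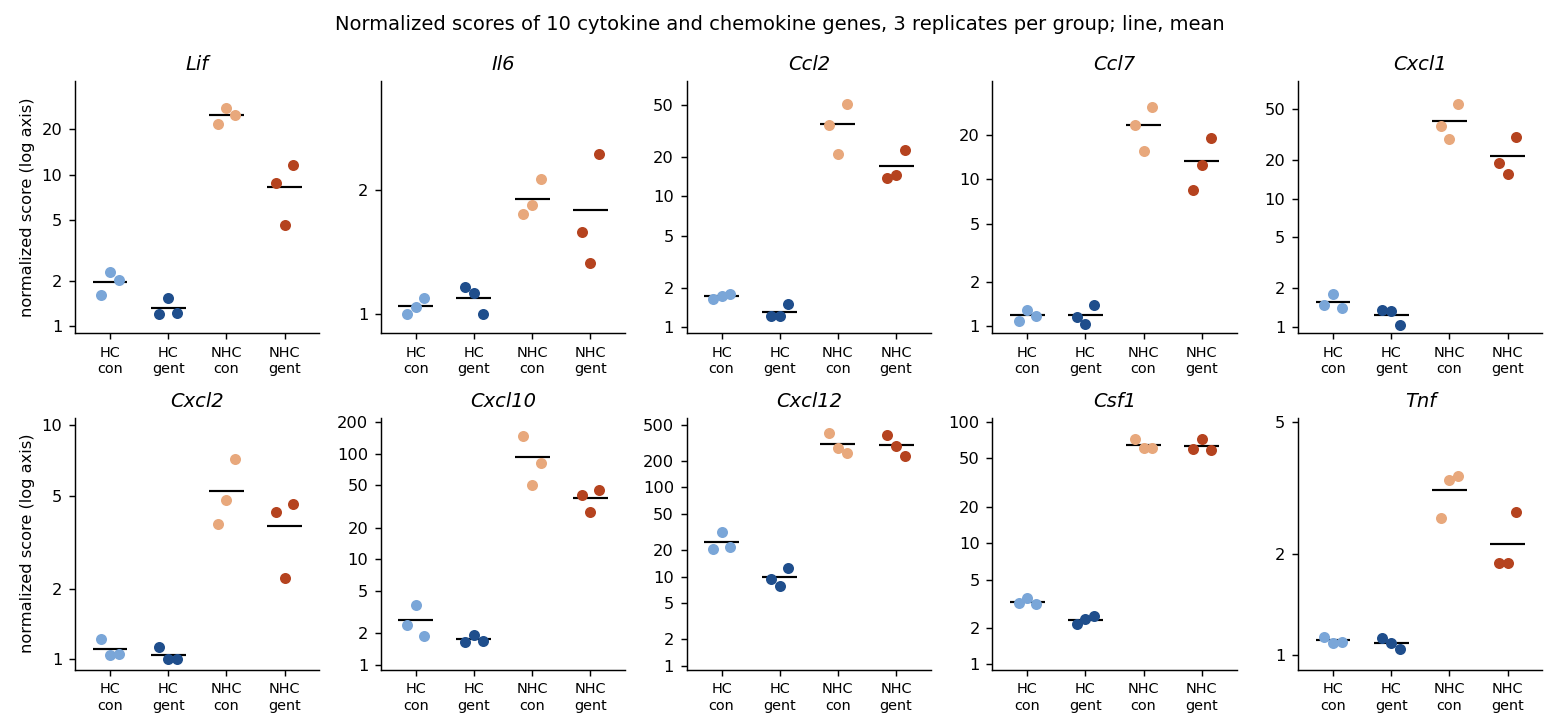
Normalized read scores of the 10 genes on a log axis, with 3 replicates (points) and their mean (line) in HC control, HC gentamicin, NHC control and NHC gentamicin. NHC replicates lie above all HC replicates for each gene, and Lif and Cxcl10 are lower in all 3 treated NHC replicates than in their controls. In treated HC, Cxcl12 (7.86–12.3 against 20.3–31.5) and Csf1 (2.15–2.50 against 3.17–3.52) are lower and called. Lif, Ccl2 and Cxcl1 are also lower there, without a call.

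Levels of different genes were compared as the score above 1 per kilobase of exon. In NHC control the order was Cxcl10 (40.6 ± 21.7, SD, n = 3), Cxcl12 (37.6 ± 10.4), Ccl2 (30.6 ± 13.2), Ccl7 (28.0 ± 9.78), Cxcl1 (20.9 ± 7.11), Csf1 (12.05 ± 1.24), Lif (5.48 ± 0.688), Cxcl2 (2.05 ± 0.841), Tnf (1.29 ± 0.288) and Il6 (0.370 ± 0.081). Replicates of neighbours overlapped among the first 5 and between Cxcl2 and Tnf, and did not overlap between Cxcl1 and Csf1, Csf1 and Lif, Lif and Cxcl2, or Tnf and Il6. In NHC gentamicin the level per kilobase of Cxcl12 (36.7 ± 9.87) led without overlap, and Cxcl10 (16.5 ± 4.01), Ccl7 (15.4 ± 6.66), Ccl2 (14.1 ± 4.40), Csf1 (11.8 ± 1.38) and Cxcl1 (10.99 ± 4.10) followed, with replicates of neighbours overlapping. Lif (1.69 ± 0.802) and Cxcl2 (1.30 ± 0.623) were next, with overlapping replicates. In HC control, the level per kilobase of Cxcl12 (2.86 ± 0.759) was highest without overlap, and Cxcl10 (0.734 ± 0.416) and Ccl2 (0.633 ± 0.0582) followed and overlapped.

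Each of the 10 genes was lower in every HC control replicate than in every NHC control replicate, and that also held after gentamicin. For the 7 genes with fewer than 100 HC reads this is a description, since they entered the tests through their NHC reads. Recovered reads over the 6 HC and 6 NHC replicates were 90 and 2402 for Lif, 73 and 3949 for Ccl2, 29 and 2717 for Ccl7, 57 and 4662 for Cxcl1, 10 and 542 for Cxcl2, 10 and 133 for Il6, and 13 and 255 for Tnf. The other 3 genes, Cxcl10, Cxcl12 and Csf1, were called lower in HC control, where 37.7% of all tested genes were called lower. Their log2 differences were -5.04 for Cxcl10 (95% interval -5.82 to -4.27, limma, adjusted p = 1.42e-07), -3.66 for Cxcl12 (-4.22 to -3.10, adjusted p = 1.31e-07) and -4.29 for Csf1 (-4.56 to -4.03, adjusted p = 7.97e-11). After gentamicin the differences between HC and NHC were -4.41, -4.93 and -4.76 for these 3 genes. Whether the size of this gap differed between treated and control cells was not tested.

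Of the 10 genes, 2 met the criteria of an unadjusted p under 0.01 and a fold above 1.2 in gentamicin-treated HC, against 27.5% of all tested genes, and both were lower, as 14.8% of tested genes were. All treated replicates lay under all controls for 5 of the 10 (Lif, Ccl2, Cxcl1, Cxcl12 and Csf1), against 33.1% of tested genes. The median log2 difference of the 10 was -0.37, and that of all tested genes was -0.09. The count of 2 is near the background, as the share of all genes called in HC was large, and neither share is a result about the group as a whole. Of the 10 genes, 7 had fewer than 100 reads over the 6 HC replicates and passed the minimum through NHC. The added 1 shrinks their log2 differences, so a lack of a call for them says little.

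**Figure D2:**
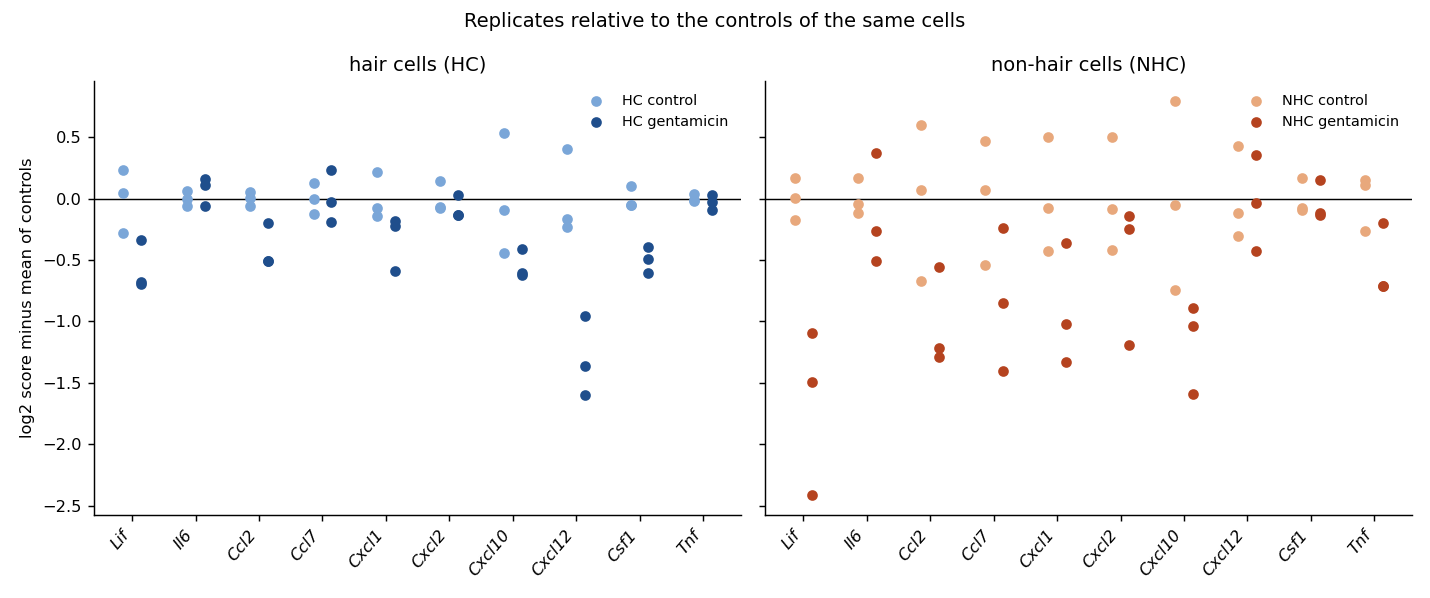
Log2 score of each replicate minus the mean of the 3 controls of the same cells, for HC (left) and NHC (right), with controls in pale and gentamicin in dark colours. Cxcl12 (-1.31) and Csf1 (-0.50) are the members called lower in HC, where Lif (-0.57) and Cxcl10 (-0.54) also lay lower, without a call. In NHC the lowest point is a replicate of Lif, and the points of Cxcl12 and Csf1 lie on both sides of 0.

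The HC level of these genes was set beside markers of the cells that surround hair cells. The summed score above 1 of all 10 genes was 4.24–6.61% of the NHC mean in HC control and 2.27–3.19% of the NHC mean in HC gentamicin. For Cxcl12 the HC level moved from 6.27–9.92% to 2.29–3.78% of NHC, and for Csf1 from 3.40–3.97% to 1.85–2.41%. Fibroblast and mesenchyme markers in HC moved from 7.56–11.1% to 4.38–5.33% of NHC, and endothelial markers from 4.41–8.83% to 2.06–3.56%. HC control 2 had the highest share for Cxcl12, for fibroblast markers and for endothelial markers. Pericyte and smooth muscle markers moved from 33.4–40.7% to 21.5–26.5%, Schwann cell and glia markers from 32.2–39.8% to 18.5–30.8%, and supporting cell markers from 110–133% to 57.5–106%. The summed share of neuron markers went the other way, from 94.6–108% to 159–178%. Their mean sum was 1245 in HC control and 1173 in HC gentamicin, beside 1230 in NHC control and 707 in NHC gentamicin. A share of NHC can thus move with the NHC mean. Nefm, Nefl and Isl1 had the highest HC control means, at 699, 338 and 115, beside 521, 252 and 138 in NHC control. Tubb3 went from a mean of 23.0 to 12.5 in HC and Stmn2 from 20.7 to 9.42. In HC 4 of the 6 neuron log2 differences were below 0. Of 9 fibroblast markers, 3 were called lower in HC (Col1a2, Col3a1 and Dcn), and of 9 endothelial markers 1 was (Cdh5). With 1 replicate left out, Col3a1 held in 5 of 6 fits, Col1a2 and Dcn in 3 and Cdh5 in 2. The counts were 3 of 6 for pericyte and smooth muscle, 2 of 6 for Schwann cell and glia, 3 of 10 for supporting cell and 0 of 6 for neuron markers. Among these, Cspg4, Pdgfrb, Foxd3 and Hes5 held in all 6 fits, Lfng in 4, Gjb2 in 3, and Notch3 and Sox10 in 2. Voom weights called 1 fibroblast, 0 endothelial, 2 pericyte, 0 Schwann cell, 2 supporting cell and 0 neuron markers in HC. Hair cell markers were lower in treated HC too, at 3666–4052% of NHC against 4399–4597% in controls, with 0 of 10 called by limma. Of all tested genes, 14.8% were called lower in HC, and none in these lists was called higher. The part of these cells in the HC difference of Cxcl12 and Csf1 was not tested.

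Of 14 markers of macrophages, the main cells that read CSF1 through Csf1r, 1 rose in HC, the lysosomal Cd68, from a mean score of 2.43 to 14.1 (log2 2.52, limma, adjusted p = 3.81e-05). The NHC means of Cd68 were 10.1 in controls and 8.59 after gentamicin, so treated HC stood above both. The marker sum moved from 6.68–7.63% to 19.5–23.7% of NHC with Cd68 and from 5.80–7.10% to 6.24–9.71% without it, with overlap, an alternative chosen after seeing the data. Csf1r itself had mean scores of 1.202 ± 0.137 and 1.46 ± 0.297 in HC (SD, n = 3), and the other 13 markers did not pass the test.

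**Figure D3:**
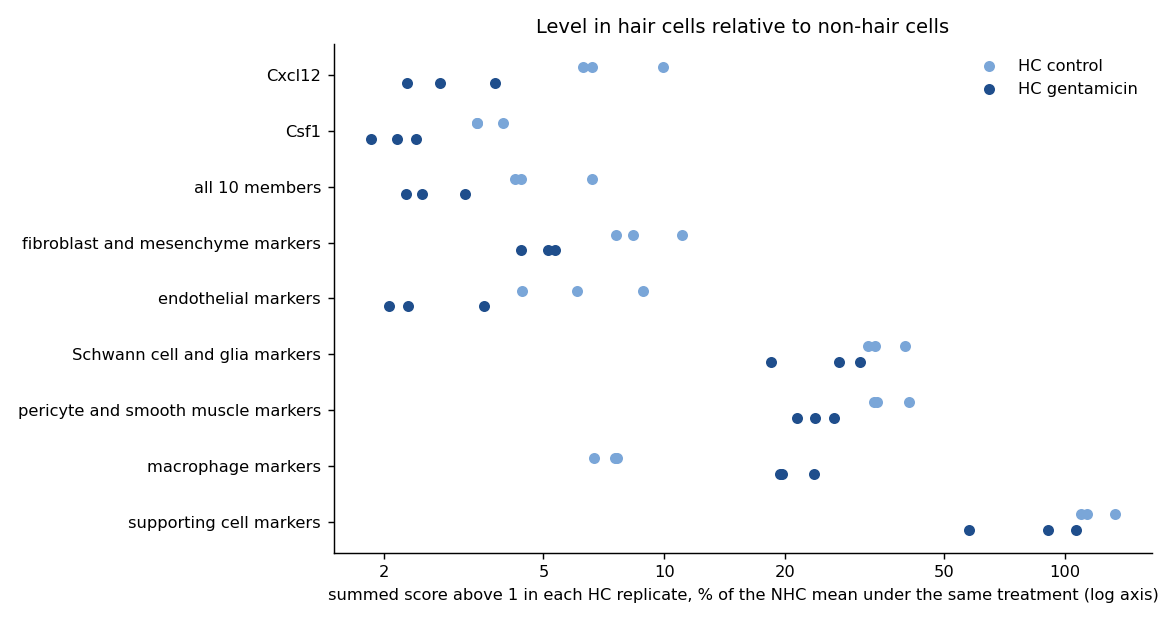
Score above 1, summed over the genes of each row, in each HC replicate as a percentage of the NHC mean under the same treatment, on a log axis, for Cxcl12, Csf1, all 10 genes and 6 lists of cell type markers. Every row but that of the macrophage markers is lower in all 3 treated replicates than in the controls. The macrophage markers are higher (19.5–23.7% against 6.68–7.63%), which rests on Cd68 (6.24–9.71% against 5.80–7.10% without it). The summed share of neuron markers, not drawn, moved from 94.6–108% to 159–178%, while 4 of their 6 log2 differences in HC were below 0.

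In NHC, the comparison by whose values Lif was chosen, 5 of the 10 genes (Lif, Ccl2, Cxcl1, Cxcl10 and Tnf) had values past the same limits, all with lower scores, beside 5.45% of tested genes in either direction and 2.26% lower. This count describes values that chose a member, is not a test of them, and nothing is read from it. Lif and Cxcl10 were the 2 genes without overlap between treated and control replicates, which held for 7.68% of tested genes in that direction. All 10 log2 differences were below 0, from -1.67 for Lif to -0.03 for Csf1, with a median of -0.69 against -0.01 for all tested genes. This median includes Lif and, like the count, is a description from which nothing is read. With 1 NHC replicate left out, Csf1, Cxcl12 and Il6 reached up to 0.05, 0.18 and 0.05. The score above 1 was 40.5% of the control mean for Cxcl10, 46.0% for Ccl2, 52.6% for Cxcl1, 54.6% for Tnf, 55.1% for Ccl7, 63.4% for Cxcl2, 87.3% for Il6, and 97.6% and 97.8% for Cxcl12 and Csf1. Cxcl12 and Csf1 thus differed little between the NHC groups, whereas they were the members called lower in HC. The difference between the populations was not tested. In HC the score above 1 was 37.8% of the control mean for Cxcl12 and 58.2% for Csf1. It was 33.2% for Lif, 40.8% for Cxcl2, 42.3% for Ccl2, 43.5% for Cxcl1 and 45.5% for Cxcl10, none of them called there. Tnf stood at 78.9%, and Ccl7 and Il6 were above their control means. Apart from Cxcl10, these uncalled genes had fewer than 100 HC reads.

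Markers of the cells in the NHC mixture were set beside these values. Macrophage markers summed to 64.7–119 in NHC control and 85.6–111 in NHC gentamicin, with 0 of 14 called by limma, 0 at an unadjusted p under 0.05 and 0 with voom weights. Fibroblast markers summed to 5915–7654 and 6607–10138, and endothelial markers to 406–414 and 447–536, with Cldn5, a tight junction gene, called higher (log2 1.12, limma, adjusted p = 0.0466). Neuron markers ranged more widely, from 635 to 1572 in controls and from 316 to 1157 after gentamicin, with all 6 log2 differences below 0, a median of -0.96 and 0 called by limma or with voom weights. At an unadjusted p under 0.05 there were 3, and without NHC control 1 or without NHC gentamicin 3 the calls numbered 4, while 5 or 6 of the 6 lay below 0 without any 1 NHC replicate. Immediate early genes, which tissue dissociation is known to raise, summed to 8562–11622 in NHC control and 4488–9410 in NHC gentamicin. The part of neurons or of immediate early expression in the NHC values of Lif and the chemokines was not tested.

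Other genes of the same pathways, listed with earlier results of these data known, were tested in both gentamicin comparisons. Of all tested genes, 27.5% were called in HC, 14.8% of them all as lower, and 5.45% were called in NHC, 2.26% as lower. Many counts below lie near these shares, no list was tested against them, and a count is not a result about its list. Among the other IL-6 family ligands, 6 of 7 genes were tested, 1 rose and 1 fell in HC, and in NHC 0 were called by limma, 0 had an unadjusted p under 0.05 and 0 were called with voom weights. Cntf, the neurotrophic cytokine of this family, scored 1.73, 1.17 and 2.0005 in HC control and 6.49, 9.01 and 6.68 in HC gentamicin. It rose without overlap, by 2.20 on the log2 scale (SE 0.20, limma, adjusted p = 4.36e-05), while NHC means were 1.70 ± 0.126 and 2.05 ± 0.205 (SD, n = 3). Cntf lies next to Zfp91 and readthrough transcripts can join them, and Zfp91 had HC means of 217 ± 13.5 and 238 ± 9.58. Clcf1, another cytokine gene of this family, fell from 2.38 to 1.62 in HC.

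Of 12 genes for IL-6 family receptors and signalling, 1 rose and 3 fell in HC, and 2 fell in NHC. The LIF receptor gene Lifr scored 29.3, 34.9 and 38.5 in HC control and 22.5, 25.01 and 24.1 in HC gentamicin, and it fell by 0.51 on the log2 scale (limma, adjusted p = 0.0153), but the call was lost without HC control 2 (-0.49), HC control 3 (-0.42) or HC gentamicin 1 (-0.47). Its NHC means were 128 ± 14.1 and 138 ± 25.6. The kinase genes Jak2 and Tyk2 fell in HC by 0.34 and 0.29, and the IL-6 receptor gene Il6ra rose by 0.64. In NHC the oncostatin M receptor gene Osmr scored 60.9, 46.4 and 40.5 in controls and 34.6, 28.0 and 28.7 after gentamicin, and Stat3 scored 267, 236 and 215 in controls and 177, 205 and 199 after gentamicin. Neither group pair overlapped, and the log2 differences were -0.68 and -0.30, with adjusted p = 0.119 for each by limma. The call of Osmr was lost without NHC control 1 (-0.52), NHC gentamicin 2 (-0.62) or NHC gentamicin 3 (-0.64), and that of Stat3 without NHC control 1 (-0.22), NHC control 2 (-0.31) or NHC gentamicin 1 (-0.24). The shared receptor chain Il6st did not pass the test in either population, with HC means of 109 ± 4.94 and 96.2 ± 10.7 and NHC means of 286 ± 7.89 and 314 ± 50.2.

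Among 12 STAT3 feedback and target genes, 2 rose and 3 fell in HC, and 4 fell in NHC. Cebpb, a transcription factor of acute phase genes, scored 264, 228 and 194 in NHC control and 119, 104 and 138 in NHC gentamicin. It fell by 0.93 on the log2 scale (SE 0.14, limma, adjusted p = 0.0301) and was the gene of these pathway lists that passed an adjusted p of 0.05 in NHC. Bcl3, an IkB family co-regulator, scored 47.7, 34.5 and 31.5 against 21.6, 16.9 and 17.4 (log2 -1.01, adjusted p = 0.0651). Junb (-0.78) and Cish (-0.35) were also called lower in NHC, though Junb not without NHC control 2 (-0.66) or NHC gentamicin 1 (-0.55) and Cish in none of the 6 fits with 1 replicate left out. The feedback inhibitor Socs3 had NHC scores of 217, 260 and 177 in controls and 83.6, 196 and 148 after gentamicin, which overlapped and did not pass the test. In HC, Socs3 fell by 1.36 (-1.15 to -1.28 without HC control 2 or 3 or HC gentamicin 1 or 2, each of which ended the call), Socs1 by 0.85 and Bcl3 by 0.90, while Cish rose by 0.58 and Hif1a by 0.37.

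Of 15 tested genes for other chemokine ligands, 2 rose and 2 fell in HC, and 1 rose and 4 fell in NHC. Ccl20, a ligand of CCR6, scored 2.07, 1.63 and 3.12 in NHC control and 1.31, 1.15 and 1.18 in NHC gentamicin (log2 -0.86, limma, adjusted p = 0.0676). Ccl3 (-0.62), Ccl4 (-0.57) and Ccl27a (-0.29) were the others called lower, and Cxcl14, which scored 237 ± 6.65 in HC control, was called higher in NHC (0.59, from 4.67 ± 0.721 to 7.005 ± 0.614). In HC, Ccl27a fell by 0.68 and Ccl9 by 0.60, and Ccl25 and Cxcl16 rose by 0.56 and 0.45.

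Chemokine receptors were tested for the 8 of 14 genes that had at least 100 reads. In NHC 0 were called by limma or with voom weights and 1 had an unadjusted p under 0.05. In HC 3 fell by limma, among them both receptors of CXCL12, and voom weights called 2 of the 8. Cxcr4, the signalling receptor, scored 26.3, 26.9 and 31.3 in HC control and 16.1, 12.6 and 14.5 in HC gentamicin, and fell by 0.97 on the log2 scale (SE 0.20, limma, adjusted p = 0.00398). The scavenging receptor gene Ackr3, listed under its older symbol Cxcr7, scored 38.8, 41.0 and 43.6 in HC control and 20.6, 12.005 and 23.4 in HC gentamicin, and fell by 1.19 (SE 0.21, adjusted p = 0.00158). HC control levels of Cxcr4 and Cxcr7 were 28.2 ± 2.73 and 41.1 ± 2.41, beside 59.3 ± 16.3 and 69.1 ± 4.34 in NHC control, so that they stood closer to NHC than Cxcl12 did. Both were lowest in HC gentamicin 2, as were the supporting cell and Schwann cell marker sums (57.5% and 18.5% of NHC there). Fibroblast, endothelial and pericyte marker sums were lowest in HC gentamicin 1. The part of such cells in the receptor values was not tested. Cxcr2, the receptor of CXCL1 and CXCL2, fell by 0.62 in HC.

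In the colony stimulating factor and TNF axis, 12 genes were tested, 1 rose (Traf2, a TNF receptor adaptor, by 0.46) and 1 fell (Tnfsf12, by 0.59) in HC, while in NHC 0 were called by limma or with voom weights and 2 had an unadjusted p under 0.05. The TNF receptor gene Tnfrsf1a had means of 12.3 ± 2.29 and 7.79 ± 2.80 in HC and 159 ± 33.0 and 158 ± 31.6 in NHC. Of 9 genes of the interleukin 1 axis, 1 was called in each population. Il33, an alarmin, scored 34.7, 41.0 and 54.2 in HC control and 20.3, 10.5 and 10.2 in HC gentamicin, and fell by 1.72 on the log2 scale (SE 0.30, limma, adjusted p = 0.00153). In NHC the interleukin 1 receptor gene Il1r1 was lower by -0.64 (adjusted p = 0.108).

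Of 12 NF-kB responsive genes, 2 fell in each population. Ier3, a short-lived early response gene, scored 17.8, 26.5 and 25.1 in HC control and 11.02, 7.36 and 7.81 in HC gentamicin (log2 -1.41, limma, adjusted p = 0.000383). In NHC it scored 327, 288 and 249 in controls and 130, 139 and 177 after gentamicin (-0.96, adjusted p = 0.0623). Nfkb2 fell in HC by 0.37, and Nfkbia, the IkB alpha gene, was called lower in NHC (-0.47). Among 14 interferon responsive genes, 1 rose (Irf9, by 0.66) and 2 fell (Oasl2, by 0.95, and Irf1, by 0.58) in HC, calls that held in 4, 0 and 2 of the 6 fits with 1 replicate left out. In NHC all 14 log2 differences were below 0, with a median of -0.35 against -0.01 for all tested genes, 0 called by limma, 2 at an unadjusted p under 0.05 and 1 called with voom weights. This rested on NHC control 1, without which 7 of the 14 lay below 0, 7 above, and the median was -0.01.

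Of 10 genes for factors that set the decay of cytokine mRNAs, 1 rose and 3 fell in HC, and 1 rose and 2 fell in NHC. Zfp36, which encodes tristetraprolin, scored 74.2, 120 and 104 in HC control and 37.6, 46.8 and 45.4 in HC gentamicin, and fell by 1.18 on the log2 scale (SE 0.27, limma, adjusted p = 0.00767). Zfp36l1 fell by 0.73 in HC and was called lower by -0.54 in NHC, and Khsrp fell by 0.40 in HC. Zc3h12a, the gene for the RNase regnase-1, was called lower in NHC (-0.53), and Hnrnpd was called higher in both (0.32 in HC and 0.42 in NHC). Among 12 immediate early genes, 1 rose and 5 fell in HC. Jun scored 310, 391 and 404 in HC control and 838, 1201 and 987 in HC gentamicin and rose by 1.45 (SE 0.31, limma, adjusted p = 0.00536), whereas Fos, its partner in AP-1, fell by 1.15, and Klf4, Egr1, Fosb and Ier2 fell by 1.05, 0.68, 1.38 and 0.72. In NHC all 12 differences were below 0 with a median of -0.60, 0 were called by limma or with voom weights, and 8 had an unadjusted p under 0.05. With 1 NHC replicate left out, 10 to 12 of the 12 lay below 0, and without NHC gentamicin 3 the calls numbered 9. When each replicate was left out in turn, 18 of the 36 calls in HC and 6 of the 17 in NHC from these lists held in all 6 fits. The 18 in HC were Cntf, Socs1, Bcl3, Cish, Ccl27a, Ccl9, Cxcr2, Cxcr4, Cxcr7, Traf2, Il33, Ier3, Zfp36, Zfp36l1, Khsrp, Jun, Fos and Klf4, and the 6 in NHC were Bcl3, Ccl20, Cebpb, Cxcl14, Hnrnpd and Ier3. Of the other calls in HC, Tyk2 held in 5 fits, Irf9 in 4, Clcf1, Egr1, Hif1a, Jak2 and Lifr in 3, Ccl25, Fosb, Hnrnpd, Il6ra, Irf1, Nfkb2 and Socs3 in 2, Cxcl16, Ier2 and Tnfsf12 in 1, and Oasl2 in 0. In NHC, Nfkbia held in 5 fits, Il1r1 and Junb in 4, Ccl4, Osmr and Stat3 in 3, Ccl27a, Ccl3, Zc3h12a and Zfp36l1 in 2, and Cish in 0.

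**Figure D4:**
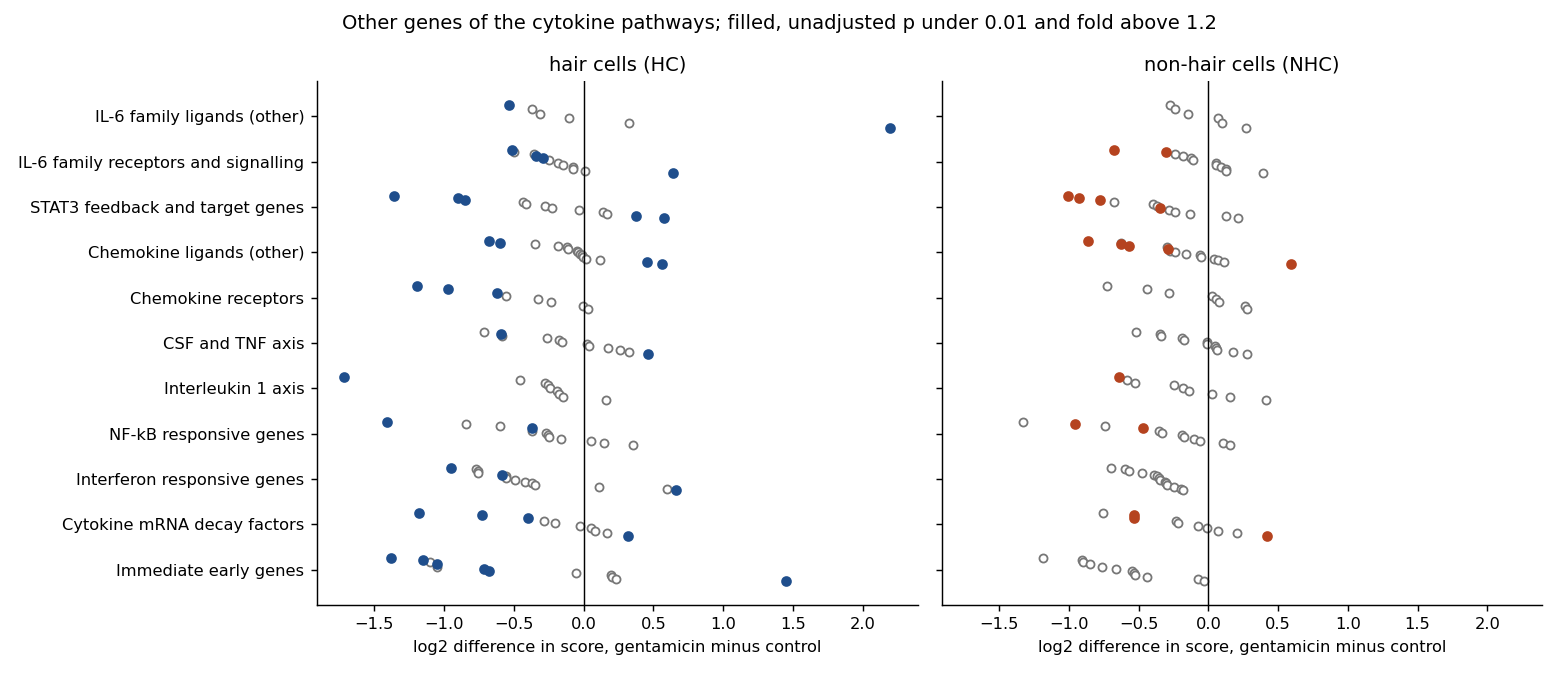
Log2 differences in score between gentamicin and control for the tested genes of 11 pathway lists in HC (left) and NHC (right), 1 point per gene, filled where an unadjusted p was under 0.01 and the fold above 1.2. The rightmost filled point in HC is Cntf (2.20), and in NHC all 14 interferon responsive and all 12 immediate early genes lie below 0 with 0 called by limma. Without NHC control 1, 7 of the 14 interferon responsive genes lay above 0, and with 1 NHC replicate left out 10 to 12 of the 12 immediate early genes lay below 0.

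The genes with profiles nearest to the members were taken over all 16088 tested genes and 12 replicates, as a description. For Lif they were Ttc9b, Kcne3 and Vstm2l, with root mean square log2 differences of 0.38, 0.42 and 0.44. For Cxcl1 they were Ccl2 (0.29), Slpi (0.31) and Krt19 (0.33), the last a keratin of epithelial cells. For Cxcl12 they were Zcchc24 (0.19), Htra3 (0.20) and Lrp1 (0.21), and for Csf1 Vstm4 (0.16), Timp1 (0.18) and Ifi27l1 (0.19). For Ccl7 they were Ccl2 (0.22), Cebpd (0.35) and Cxcl1 (0.39), whereas Ccl7 stood at place 9 for Cxcl1. Il6, Tnf and Cxcl2 lay too close to a score of 1 for their nearest genes to be read.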

How the data were processed

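Polyadenylated RNA of sorted cells was sequenced as 50 bp single-end reads. The authors trimmed reads at a quality score of 25, aligned them to mm10 with TopHat2 and deposited, for 12 replicates, a normalized read score per gene with 1 added. RPKM is the unit named in the methods, yet steps between low scores were equal for genes of any length, so the scores were not read as RPKM. Reads were recovered as (score - 1) divided by the score of 1 read, and 79.5–80.8% of low values (up to 20 reads) were whole within 0.05 read, so reads are estimates and no count model was used. Genes with at least 100 recovered reads were kept, log2 scores of all 4 groups were fitted with limma 3.58.1 (trend, R 4.3.3), and p-values were adjusted by Benjamini-Hochberg over 16088 genes. A call is an unadjusted p under 0.01 with a fold above 1.2, the criteria of the study. Log2 differences of scores with 1 added understate changes of low genes. The members and lists were chosen with earlier results of these data known. All members were named, with at most 3 called genes per list and comparison with a mean score of at least 5, and the 3 nearest genes of each member. Art3, Zfp91, Clcf1, Il6ra, Il6st, Hif1a, Ccl3, Ccl4, Ccl9, Ccl20, Cxcl16, Csf1r, Tnfsf12, Tnfrsf1a, Irf1, Egr1, Fosb and Ier2 were named after their values were seen, as were Bcl3 and Hnrnpd in HC and Cish and Socs3 in NHC. Gene positions and exon lengths are from GENCODE M21. Replicate numbers were checked by the correlation of same-numbered deviations from group means, 0.200–0.316 between HC control and NHC control (each above 0.1, so that numbers pair these samples), 0.037–0.052 between the HC groups, -0.232 to 0.683 between the NHC groups and -0.039 to 0.377 between the treated populations. The procedure was tested on simulated data. Alternatives were other scalings, offsets, minimums, voom weights, a replicate block, 2-group fits, an adjusted p as the call, and leaving out each replicate.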

Additional observations from a re-analysis of the deposited data

How the results depend on the processing

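The count of members called in HC gentamicin against HC control was 2, and it was 1 with voom weights (Cxcl12), 4 with only the 2 groups fitted (Ccl2 and Lif added) and 3 with an offset of 0.1 (Lif added). It was 2 without any 1 replicate. In NHC gentamicin against NHC control, where the values chose a member and the count is no test, it was 5, and it was 1 with an adjusted p as the call, an offset of 0.1 or only the 2 groups fitted, and 1 to 6 with 1 NHC replicate left out. The cause of these changes was not tested. Counted over 10 members and 4 comparisons, called or not, 328 results stayed on their side of the limit under other settings, 4 passed and 16 fell short. With 1 replicate left out 220 stayed, 2 passed and 18 fell short. Most that fell short were in NHC gentamicin against NHC control. There Ccl2, Cxcl1, Cxcl10 and Tnf each fell short in 4 of the 6 fits with 1 replicate left out. Under other settings they fell short in 3, 3, 4 and 4 fits, and Lif in 0 of either kind. No called value changed sign, but uncalled differences near 0 did: Ccl7 in HC, from -0.07 to 0.02 under other settings and from -0.11 to 0.10 with 1 replicate left out, and, with 1 replicate left out, Tnf in HC and Csf1, Cxcl12 and Il6 in NHC. Same-numbered samples pair only between the control populations, where the replicate block kept the calls of Cxcl10, Cxcl12 and Csf1. Elsewhere the block gave 2 members in HC and 5 in NHC, with Ccl7 in place of Cxcl10. With the block, Fos, Fosb, Nr4a1, Btg2, Dusp1, Hes5, Foxd3, Zfp36 and Cxcr2 of the pathway and marker lists were also called lower in NHC. Tek was called higher there, and Ccl27a and Cish were no longer called. In HC, Ccnd1, Ccrl1, Egr2, Gjb6, Jag1, Sox2 and Tbx18 were also called lower, and Ccl25 and Cxcl16 lost their calls. All genes called in NHC numbered 876, 383 with only the 2 groups and 55 at an adjusted p. In HC, 2037 rose and 2381 fell, and 2774 and 1591 with scaling by total reads. Scaling by median of ratios moved the median HC to NHC control difference of all genes from -0.12 to -0.01. Depth limits 7 members in HC to under 100 reads over 6 replicates.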
